A study of Homo sapiens with 16 samples.

Results

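The genes described here encode the desmosome and the classical cadherins of epithelial cells: the desmogleins DSG2 and DSG3, the desmocollins DSC2 and DSC3, the plaque proteins DSP, PKP1, PKP3 and JUP, and the cadherins CDH1 and CDH3. They were chosen by name, as clusters of array probes that the platform annotation ties to exactly 1 gene symbol, and each of the 10 genes had 1 such cluster. They are 10 of the 18417 genes that the arrays measured under a single symbol. RNA was measured on 16 Affymetrix Human Gene 1.0 ST arrays, in 8 groups of 2, from HCC70 and MDA-MB-468, established breast cancer cell lines of the basal-like type. The HCC70 groups stably carried an shRNA against EZH2 (shEZH2), an shRNA against EED (shEED), an EZH2 cDNA vector (labelled fip EZH2), a scrambled control shRNA in 2 sets of arrays (labelled a and b), or the plKO Puro control vector. The MDA-MB-468 groups carried shEZH2 or a scrambled shRNA. Cells of all 8 groups, controls included, were infected with virus in polybrene at 6 ug/ml. They were selected with puromycin at 1 ug/ml from 48 h after infection, and RNA was extracted 24 h after seeding. Whether a group was a pool or a clone, and whether its 2 arrays came from separate cultures, is not stated in the labels. The p-values therefore measure the spread between 2 arrays of a group, which may be technical.

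Desmosomes join neighbouring epithelial cells and tie the junction to the keratin filaments inside. Desmogleins and desmocollins span the membrane and bind each other between cells, plakoglobin (JUP) and the plakophilins (PKP1, PKP3) bind them inside the cell, and desmoplakin (DSP) links that plaque to keratin. E-cadherin (CDH1) and P-cadherin (CDH3) hold cells together at adherens junctions, where plakoglobin can also bind. In the breast, E-cadherin is present in luminal and basal cells and P-cadherin marks the basal, myoepithelial layer. EZH2 is the methyltransferase of Polycomb repressive complex 2 (PRC2), which marks histone H3 at repressed genes, and EED is a subunit that this activity needs.

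The 4 desmosomal cadherin genes that carry most of the changes reported below lie in 1 run on chromosome 18 in the RefSeq annotation of GRCh38.p14. The run holds 7 consecutive protein-coding genes in the order DSC3, DSC2, DSC1, DSG1, DSG4, DSG3 and DSG2. CDH3 and CDH1 are neighbours on chromosome 16. In the chromosome 18 run DSC3 and DSC2 are adjacent, as are DSG3 and DSG2, with DSC1, DSG1 and DSG4 between the pairs. Whether upstream sequence bears on the responses of these genes was not tested. The sequences just upstream of the starts of DSG3, DSG2, DSC2 and DSC3 are shown. Each is the 250 bases before the RefSeq start of the gene on its own strand, at chr18:31447491-31447740 (plus strand) for DSG3, chr18:31497927-31498176 (plus) for DSG2, chr18:31102422-31102671 (minus) for DSC2 and chr18:31042743-31042992 (minus) for DSC3. Capitals mark every CANNTG, the E-box letters read by Snail, ZEB and other factors.
DSG3: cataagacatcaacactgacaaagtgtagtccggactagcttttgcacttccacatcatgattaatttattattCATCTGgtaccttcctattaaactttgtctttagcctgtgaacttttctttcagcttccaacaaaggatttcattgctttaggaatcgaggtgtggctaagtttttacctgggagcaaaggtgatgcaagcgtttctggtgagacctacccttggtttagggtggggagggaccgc
DSG2: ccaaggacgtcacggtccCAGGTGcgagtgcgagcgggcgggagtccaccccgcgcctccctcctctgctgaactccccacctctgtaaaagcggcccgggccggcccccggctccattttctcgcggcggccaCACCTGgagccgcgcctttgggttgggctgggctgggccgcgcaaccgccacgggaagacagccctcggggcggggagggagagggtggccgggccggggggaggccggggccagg
DSC2: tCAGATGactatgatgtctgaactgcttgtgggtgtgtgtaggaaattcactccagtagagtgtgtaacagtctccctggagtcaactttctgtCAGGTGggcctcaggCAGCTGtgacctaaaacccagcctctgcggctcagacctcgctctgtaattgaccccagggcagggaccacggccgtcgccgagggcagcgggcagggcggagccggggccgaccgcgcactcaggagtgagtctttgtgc
DSC3: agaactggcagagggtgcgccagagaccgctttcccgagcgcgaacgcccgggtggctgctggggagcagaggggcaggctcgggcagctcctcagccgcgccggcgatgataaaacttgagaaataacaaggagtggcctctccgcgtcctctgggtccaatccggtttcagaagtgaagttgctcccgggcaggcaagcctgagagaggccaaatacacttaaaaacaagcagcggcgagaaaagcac

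CANNTG, which reads the same on both strands, occurred 1 time in the DSG3 window, 2 times in DSG2, 3 times in DSC2 and 0 times in DSC3. Windows were given for 7 of the 10 genes, and 4 of these 7 held it (DSP was the other), against 62.6% of 24885 RefSeq windows of the same length. Its form CAGGTG, on either strand, was in 3 of the 7 windows (DSG2, DSC2 and DSP), against 17.4% of all windows. The AP-1 letters TGANTCA were in 0 of the 7, against 6.67% of all windows. These are matches of letters, not measured binding sites.

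The deposited values are log2 signals after RMA, a method that subtracts background, puts the arrays on 1 scale and reduces the probes of a cluster to a single value. A cluster was tested where at least 2 arrays reached log2 6, which kept 16175 of 33297, and 1 limma model of the 8 group means gave each change with its standard error and a p adjusted over all tested clusters, called under 0.05. All 10 genes were tested. DSG3 and PKP1 passed through the HCC70 arrays, with 12 of 16 arrays at or above the floor, and lay below it on all MDA-MB-468 arrays. Signals of different clusters are not compared, since probes differ. Array medians ran from 5.37 to 5.53, and the 2 arrays of a group correlated at r = 0.994 to 0.997 across tested clusters. All 6 epithelial markers were measured above the floor, with an array mean of 11.51 to 11.89, while 1 of 6 fibroblast, 1 of 4 endothelial, 1 of 3 leukocyte and 0 of 3 adipocyte markers reached it on any array. The knocked-down genes were lower, in the direction of the labels. EZH2 changed by -1.47 ± 0.07 on the log2 scale with shEZH2 in HCC70 (SE; limma adjusted p = 3.35e-07) and by -1.67 ± 0.07 in MDA-MB-468 (2.56e-07). EED fell by 0.82 ± 0.11 with shEED against set b (0.000347). Set b was itself 0.38 ± 0.11 below set a for EED (0.0219). With shEED, EZH2 was also called lower against set b, near the threshold (-0.24 ± 0.07, 0.0456). EZH2 was 0.29 ± 0.07 higher in fip EZH2 cells, at 10.20 and 10.27, against 9.94 on both plKO Puro arrays, which did not pass the test (adjusted p = 0.0961).

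**Figure D1:**
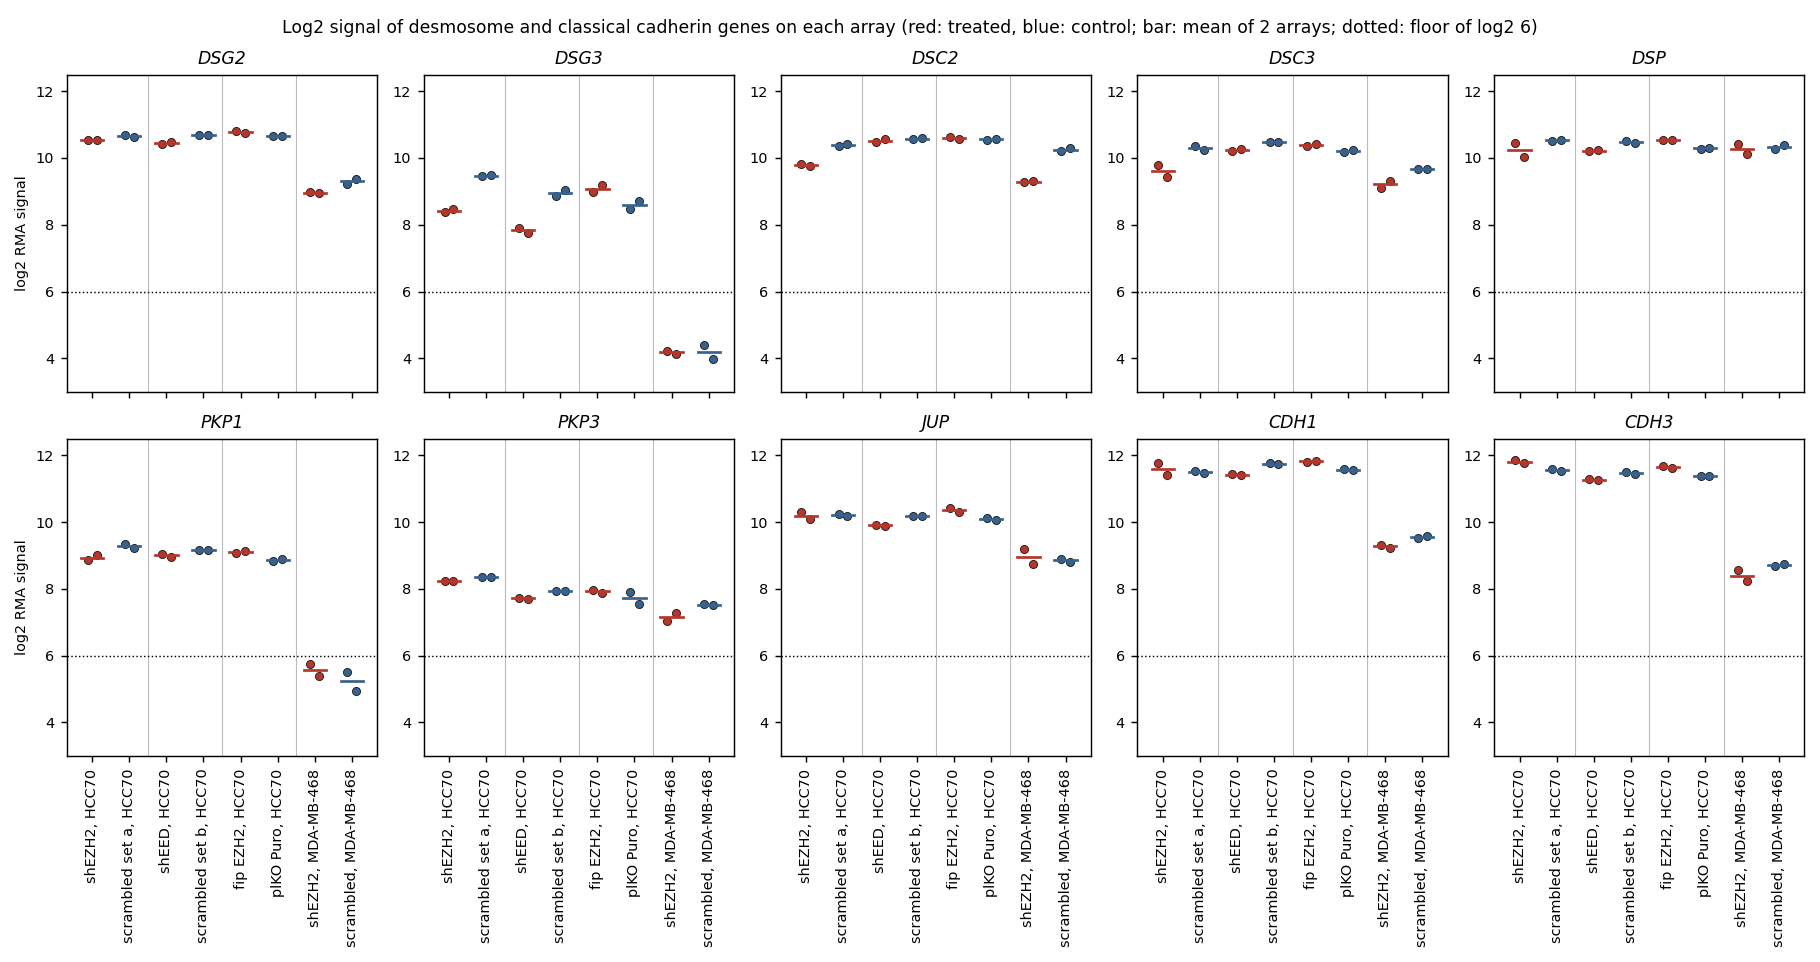
Log2 RMA signal (y axis) of each gene on each of the 16 arrays, by group (x axis); red points are treated and blue points control arrays, bars are the mean of 2 arrays, and the dotted line is the floor of log2 6. DSG3 and PKP1 lie below the floor on all MDA-MB-468 arrays, and DSC2 is lowest in the shEZH2 groups of both lines.

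Before any knockdown the lines differed in most of these genes. In MDA-MB-468 with scrambled shRNA, 8 of the 10 were lower than in HCC70 with scrambled set a and 0 were higher, where 67.1% of all tested clusters were called, 36.7% higher and 30.3% lower. DSG3 and PKP1 passed the floor only through HCC70 and so had to differ. Among the 8 genes at the floor in both lines 6 were lower, beside 65.1% called and 28% lower of the clusters at the floor in both. CDH3, the P-cadherin gene, read 8.68 and 8.75 in MDA-MB-468, against 11.58 and 11.55 in HCC70, a difference of -2.84 ± 0.10 (limma adjusted p = 3.02e-10, 7.18-fold lower). CDH1, the E-cadherin gene, read 9.53 and 9.60 in MDA-MB-468, against 11.53 and 11.46 in HCC70 (-1.93 ± 0.10, limma adjusted p = 1.36e-08, 3.81-fold lower). E-cadherin message was thus well above the floor in both lines, at different levels. DSG3, a desmoglein of stratified and basal epithelium, read 4.39 and 3.97 in MDA-MB-468, against 9.45 and 9.48 in HCC70. PKP1, a plakophilin of stratified epithelium, read 5.52 and 4.93 in MDA-MB-468, against 9.36 and 9.23 in HCC70. Both were called lower, but their MDA-MB-468 signals are below the floor and give no reliable fold. DSG2, JUP, PKP3 and DSC3 were lower by 1.37, 1.36, 0.83 and 0.63 on the log2 scale. DSC2 (-0.14, adjusted p = 0.0867) and DSP (-0.21, 0.157) were not called. Against set b, DSC2 differed by -0.33 and was called (0.0014).

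The HCC70 control sets differed in 2 of these 10 genes, a share (20%) near that of all clusters. Set b was lower than set a for DSG3 by 0.51 ± 0.14 (limma adjusted p = 0.0191) and for the plakophilin gene PKP3 by 0.41 ± 0.11 (0.0171). Between these sets of the same scrambled vector 22.7% of all clusters were called, 15.3% higher and 7.41% lower. The DSG3 call was lost without set b replicate 1, set a replicate 1 or set a replicate 2 (adjusted p 0.0738 to 0.149), and the PKP3 call without any 1 of the 4 arrays (0.0706 to 0.0922). Over the 3 HCC70 control groups the means of DSG3 spanned 0.88 and those of PKP3 0.63, while those of DSG2 spanned 0.03. The arrays of sets a and b did not overlap for 9 of the 10 genes. A lack of overlap between groups of 2 arrays, given below for single genes, is thus common and weak. Set a was assigned to shEZH2 and set b to shEED because the sample codes run in blocks; the labels do not state it. Changes against the other set stand beside the calls they alter.

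With EZH2 knocked down in HCC70, 3 of the 10 genes fell and 0 rose against set a: a desmoglein and both desmocollins. Of all tested clusters 11.4% were called, 7.3% higher and 4.06% lower. DSG3 read 8.38 and 8.47 with shEZH2, against 9.45 and 9.48 in set a, a change of -1.05 ± 0.14 (limma adjusted p = 0.000527, 2.06-fold lower). The groups did not overlap, and both knockdown arrays also lay below set b, at 8.86 and 9.05. They were only just below the plKO Puro control, at 8.48 and 8.70. Against set b the change was -0.53, about as large as the gap between the control sets, and was still called (adjusted p = 0.0138).

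DSC2, the desmocollin found in most epithelia, read 9.81 and 9.76 with shEZH2, against 10.37 and 10.41 in set a (-0.60 ± 0.07, limma adjusted p = 0.000218, 1.52-fold lower). DSC3, the basal-type desmocollin, read 9.79 and 9.43 with shEZH2, against 10.36 and 10.24 in set a (-0.69 ± 0.11, limma adjusted p = 0.00205, 1.61-fold lower). For both desmocollins each knockdown array was below all 6 HCC70 control arrays, and the changes against set b were larger (-0.79 for DSC2 and -0.87 for DSC3). Fitted on only the 4 arrays compared, DSG3 stayed called and the desmocollins did not (adjusted p = 0.0557 for DSC2 and 0.104 for DSC3). The arrays are of whole cultures, in which fewer cells that make a message and less message per cell cannot be told apart.

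The remaining genes were not called against set a. CDH3 read 11.87 and 11.76 with shEZH2, against 11.58 and 11.55 in set a (0.25 ± 0.10, limma adjusted p = 0.119). Both CDH3 arrays were above all 6 HCC70 controls, and the change was called against set b (0.34, adjusted p = 0.0221) and against both sets together (0.30, 0.0282). CDH1 read 11.77 and 11.40 with shEZH2, against 11.53 and 11.46 in set a, and the groups overlapped (0.09 ± 0.10, 0.628). The desmoglein gene DSG2 read 10.54 and 10.53 with shEZH2, against 10.70 and 10.64 in set a (-0.14 ± 0.07, 0.262). It lay below all 6 controls, by little. The plaque genes had changes of -0.28 (DSP), -0.35 (PKP1), -0.13 (PKP3) and -0.02 (JUP), with adjusted p from 0.176 to 0.954. The 2 shEZH2 arrays stood apart from each other for several genes: DSP read 10.45 on replicate 1 and 10.04 on replicate 2, and JUP 10.31 and 10.08. Without replicate 1 the DSP change was -0.49 and was called (adjusted p = 0.0216), and without replicate 2 the CDH1 change was 0.27 and was called (0.0478). The median change of the 10 genes was -0.21, beside 0.01 over all tested clusters.

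With EED knocked down in HCC70, DSG3 fell by more than any of the other genes, DSC2 was close to its control, and all 10 changes were below 0. Against set b, 2 of 10 genes were called lower and 0 higher, where 14.2% of all clusters were called, 6.63% higher and 7.53% lower. DSG3 read 7.90 and 7.75 with shEED, against 8.86 and 9.05 in set b, a change of -1.12 ± 0.14 (limma adjusted p = 0.000235, 2.18-fold lower). These were the lowest DSG3 readings among the HCC70 arrays, and against set a the change was -1.64. CDH1 read 11.43 and 11.41 with shEED, against 11.76 and 11.75 in set b (-0.34 ± 0.10, limma adjusted p = 0.0472). That call was lost without any 1 of the 4 arrays (adjusted p 0.160 to 0.207) and against set a (-0.07, 0.594).

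DSC2 read 10.48 and 10.56 with shEED, against 10.56 and 10.59 in set b (-0.06 ± 0.07, limma adjusted p = 0.672). DSC3 read 10.22 and 10.26 with shEED, against 10.48 on both set b arrays (-0.24 ± 0.11, 0.180). Neither desmocollin was lower than all 6 HCC70 controls, in contrast to their levels with shEZH2. For DSC3 the contrast in calls depended on the fit. Fitted on only the shEED and set b arrays, 7 of the 10 genes were called lower. DSC3 was among them (limma adjusted p = 0.0276) and DSC2 was not. In the same kind of fit DSC3 was not called with shEZH2 (0.104). DSG2 read 10.42 and 10.49 with shEED, against 10.68 and 10.69 in set b (-0.23 ± 0.07, 0.0553), and was called against set a (-0.21, 0.0377) and against both sets (-0.22, 0.0208). CDH3 read 11.29 and 11.26 with shEED, against 11.51 and 11.44 in set b (-0.20 ± 0.10, 0.214), and was called against set a (-0.29, 0.0370). PKP3, which differed between the control sets, changed by -0.23 against set b (0.192) and by -0.64 against set a (0.000752). DSP, PKP1 and JUP had changes of -0.26, -0.16 and -0.27 (adjusted p 0.190 to 0.608). The median of the 10 changes was -0.24, beside 0.02 over all tested clusters. Leaving out each array in turn gave 1 called gene each time, DSG3.

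**Figure D2:**
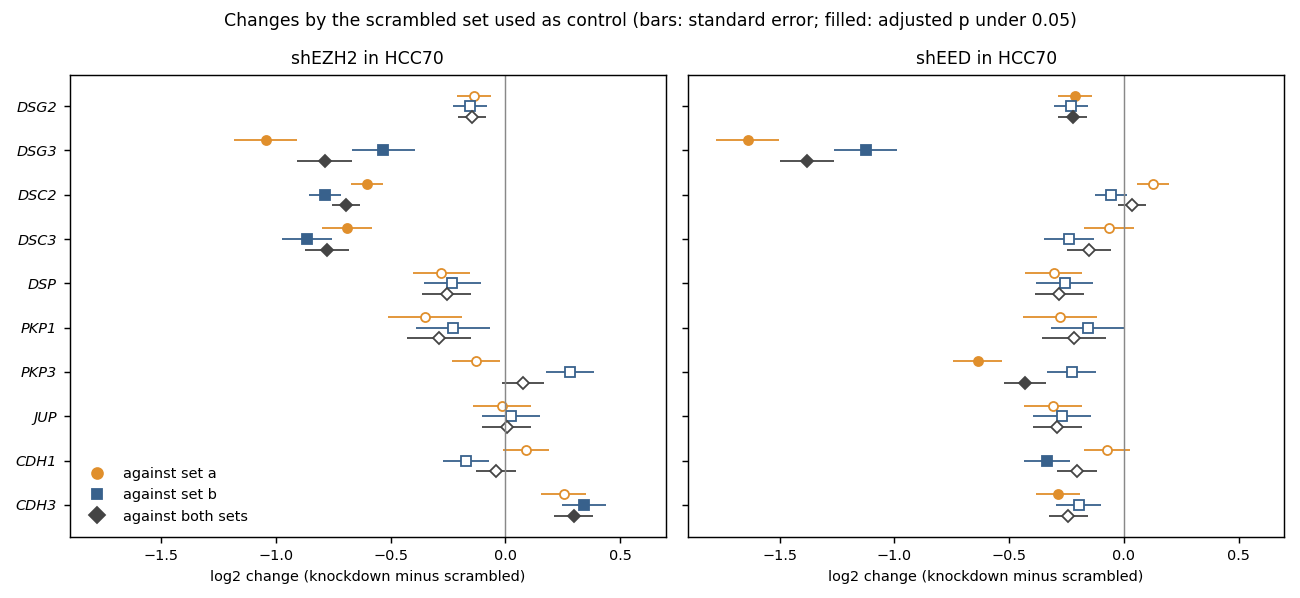
Log2 change of each gene (x axis) for shEZH2 (left) and shEED (right) in HCC70 against scrambled set a, set b or both sets; bars are standard errors, and filled markers have a limma adjusted p under 0.05. DSG3 was called in all 6 comparisons, DSC2 and DSC3 in all 3 with shEZH2 and in 0 of 3 with shEED, and the PKP3 change depended on the set.

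The knockdowns were compared as a difference of their changes. DSC2 differed by -0.55 ± 0.10, lower with shEZH2 than with shEED (limma adjusted p = 0.0065), and was the 1 gene of 10 called, where 6.31% of all clusters were called, 4.35% above 0 and 1.96% below. It was called in all 17 alternative fits, at -0.92 to -0.51. For DSC3 the difference was -0.45 ± 0.16 (0.111), for CDH3 0.45 ± 0.14 (0.0758) and for CDH1 0.42 ± 0.14 (0.105), none of them called. With the control sets exchanged, DSC3 (-0.80, adjusted p = 0.00167), CDH3 (0.63, 0.00351) and PKP3 (0.92, 0.000564) were called and CDH1 was at -0.10 (0.602). The DSG3 changes differed by 0.08 ± 0.19 (0.862), but under that exchange by 1.11 (0.000874). How these 4 called genes compare between the knockdowns thus depended on which scrambled set served which knockdown, while DSC2 was called either way.

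A description over all HCC70 controls, chosen after the values were seen, avoids that assignment. Both shEZH2 arrays lay below the range of the 6 control arrays (sets a and b and plKO Puro) for 4 of the 10 genes: DSG2, DSG3, DSC2 and DSC3. Of all tested clusters 9.26% did so. They lay above it for 1 gene, CDH3, as did 12.1% of all clusters. Both shEED arrays lay below it for 6 genes: DSG2, DSG3, DSP, JUP, CDH1 and CDH3 (11.2% of all clusters), and above it for 0 (20.3%). Both fip EZH2 arrays lay above it for 4 genes: DSG2, JUP, CDH1 and CDH3 (6.96% of all clusters), and below it for 0 (4.1%). CDH3 was thus the gene on opposite sides of the controls in the 2 knockdowns, while DSG2 and DSG3 were below them in both. For DSG3 with shEZH2 the margin was very small: the higher array read 8.467, against 8.479 on the lowest control array, of plKO Puro.

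With EZH2 cDNA in HCC70, all 10 changes against plKO Puro were above 0, and 0 were called. The plKO Puro mean was itself the lowest of the HCC70 control groups for every gene but DSC2 and CDH1. Beside set a, the fip EZH2 mean was lower for DSG3 (9.08 against 9.47), PKP1 (9.10 against 9.29) and PKP3 (7.92 against 8.36). It was level for DSP (10.53 in both) and higher for the other genes. The comparison with plKO Puro called 0.977% of all clusters, 0.909% higher and 0.068% lower. At an unadjusted p under 0.05, 3 genes passed, DSG3, CDH1 and CDH3, all higher, as did 7.81% of all clusters in that direction. DSG3 read 8.98 and 9.18 with fip EZH2, against 8.48 and 8.70 with plKO Puro (0.49 ± 0.14, limma adjusted p = 0.161). The DSG3 values did not overlap, but both lay below those of scrambled set a. CDH3 read 11.69 and 11.63 with fip EZH2, against 11.37 and 11.39 with plKO Puro (0.28 ± 0.10, 0.287). CDH1 read 11.80 and 11.84 with fip EZH2, against 11.58 and 11.56 with plKO Puro (0.25 ± 0.10, 0.404). The cadherin arrays were tight within each group and did not overlap. DSC2 read 10.64 and 10.56 with fip EZH2, against 10.55 and 10.57 with plKO Puro, and overlapped (0.03 ± 0.07). The other genes had changes of 0.11 (DSG2) to 0.27 (JUP). The median was 0.24, beside 0.02 over all tested clusters. Leaving out each array in turn gave 0 called genes each time.

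**Figure D3:**
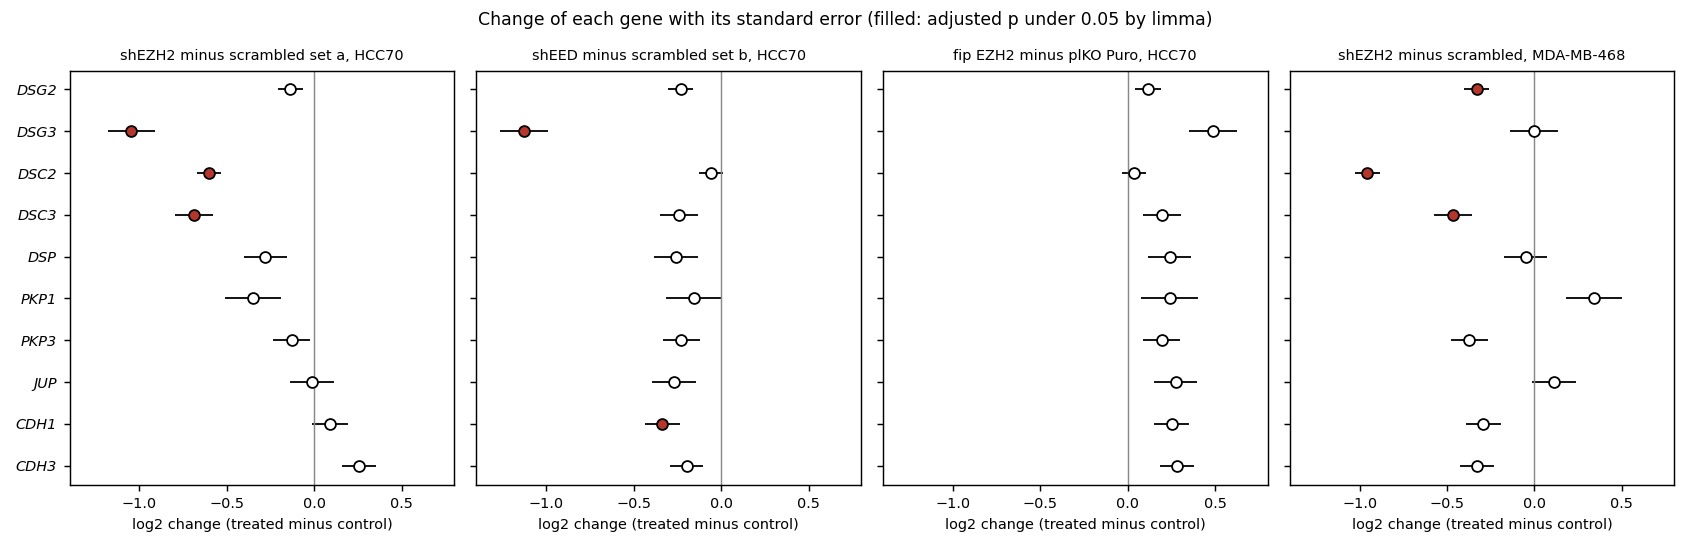
Log2 change of each gene (x axis), treated minus control, in the 4 treatments; bars are standard errors and filled points have a limma adjusted p under 0.05. DSG3 fell in both HCC70 knockdowns, DSC2 and DSC3 fell with shEZH2 in both lines, and all 10 open points lie above 0 for fip EZH2 against plKO Puro. The plKO Puro mean was the lowest of the HCC70 control groups for every gene but DSC2 and CDH1.

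With EZH2 knocked down in MDA-MB-468, 3 of the 10 genes fell, DSG2, DSC2 and DSC3, and 0 rose, where 8.3% of all clusters were called, 2.73% higher and 5.57% lower. DSC2 read 9.27 and 9.31 with shEZH2, against 10.20 and 10.29 with scrambled shRNA, a change of -0.96 ± 0.07 (limma adjusted p = 2.6e-05, 1.94-fold lower). The gap between the groups was far wider than that between duplicates, and the call held without each of the 4 arrays in turn. DSC3 read 9.11 and 9.31 with shEZH2, against 9.67 and 9.68 with scrambled shRNA (-0.47 ± 0.11, limma adjusted p = 0.026). DSG2 read 8.98 and 8.95 with shEZH2, against 9.22 and 9.37 with scrambled shRNA (-0.33 ± 0.07, limma adjusted p = 0.0197). These calls rest on the full set of arrays. Without shEZH2 replicate 1, shEZH2 replicate 2 or scrambled replicate 2 the DSG2 call was lost (adjusted p = 0.0559, 0.0555 and 0.184), and without shEZH2 replicate 1, scrambled replicate 1 or scrambled replicate 2 the DSC3 call was lost (0.129, 0.0596 and 0.155). Fitted on only the 4 MDA-MB-468 arrays, 0 of the 10 were called, DSC2 included (adjusted p = 0.0623); 21 clusters in all were called by that fit.

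The classical cadherins had changes below 0 in MDA-MB-468 that did not pass the test. CDH3 read 8.55 and 8.23 with shEZH2, against 8.68 and 8.75 with scrambled shRNA (-0.33 ± 0.10, limma adjusted p = 0.0582). CDH1 read 9.32 and 9.23 with shEZH2, against 9.53 and 9.60 with scrambled shRNA (-0.29 ± 0.10, 0.0967). PKP3 read 7.05 and 7.27 with shEZH2, against 7.54 and 7.52 with scrambled shRNA (-0.37 ± 0.11, 0.0514). In these 3 genes the groups did not overlap, but neither did the 2 HCC70 control sets for 9 of the 10 genes. The share of all clusters without overlap was not counted. With a floor of log2 7, with 1-symbol clusters alone or with an eBayes trend, CDH3 and PKP3 were called too, which gave 5 called genes. Without shEZH2 replicate 1 CDH3 changed by -0.49 and was called (adjusted p = 0.0147), and without shEZH2 replicate 2 PKP3 changed by -0.48 and was called (0.0408). JUP (0.11) and DSP (-0.05) overlapped between groups. DSG3 and PKP1 were below the floor in both groups, so a change could not be read; without scrambled replicate 1 the PKP1 fit gave 0.63 (0.0183), still between signals under the floor. The median change was -0.31, beside -0.02 over all tested clusters.

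DSC2 had its lowest levels where EZH2 was knocked down in either line. Ordered by mean, it stood at 10.60 with fip EZH2, 10.58 in set b, 10.56 with plKO Puro, 10.52 with shEED and 10.39 in set a in HCC70, then 10.25 in scrambled MDA-MB-468, 9.79 in shEZH2 HCC70 and 9.29 in shEZH2 MDA-MB-468. Neighbours among the 4 highest overlapped, and every later step was without overlap. A step without overlap need not be a called difference. DSC2 in sets a and b did not overlap either, and their difference was not called (limma adjusted p = 0.0779). DSG3 kept another order: 9.47 in set a, 9.08 with fip EZH2, 8.95 in set b, 8.59 with plKO Puro, 8.42 with shEZH2 and 7.83 with shEED in HCC70, and 4.18 in both MDA-MB-468 groups. Only fip EZH2 and set b, and the MDA-MB-468 groups, overlapped as neighbours.

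The EZH2 knockdown effects of the 2 lines were compared directly. For 3 of the 10 genes the difference, HCC70 minus MDA-MB-468, was called, where 13.2% of all clusters were called, 8.97% above 0 and 4.27% below. DSG3, 1 of them, could not show a fall in MDA-MB-468. Of the 8 genes at the floor in all 4 groups 2 were called, both above 0, beside 12.7% of such clusters called and 4.05% below 0. CDH3 differed by 0.58 ± 0.14 (limma adjusted p = 0.0188), being 0.25 above control in HCC70 and 0.33 below it in MDA-MB-468. That call was lost without set a replicate 2 (0.0673) or MDA-MB-468 scrambled replicate 2 (0.0706) and was kept against set b or both sets. DSG3 differed by -1.04 ± 0.19 (0.00628), where the MDA-MB-468 signal was already below the floor. Against set b this became -0.53 (0.085). DSC2 differed by 0.35 ± 0.10 (0.037), a smaller fall in HCC70, and was called in 7 of 18 alternative fits. Against set b it was 0.17 (0.281) and against both sets 0.26 (0.0853), neither called. The PKP3 difference was 0.24 (0.301) against set a and was called against set b (0.65, 0.0130). Among fits without 1 array the DSC2 call was lost in 6: without shEZH2 replicate 1 or either set a array in HCC70, without either shEZH2 array or scrambled replicate 2 in MDA-MB-468. Without shEZH2 replicate 2 in HCC70 the CDH1 difference was 0.56 and was called (0.00600). PKP1, at -0.69 (0.066), was called without shEZH2 replicate 2 (-0.87, 0.0403) or scrambled replicate 1 (-0.99, 0.0057) of MDA-MB-468, again with that line below the floor.

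The desmosomal cadherins DSG1, DSG4 and DSC1, which lie between DSC2 and DSG3 on chromosome 18, were below the floor on all 16 arrays, at 3.43 to 3.63, 3.57 to 3.95 and 4.01 to 4.53. Of 9 other desmosome and plakin genes 6 were tested, and 0 were called with shEZH2 in HCC70 against set a, with shEZH2 in MDA-MB-468 or with fip EZH2. With shEED 2 were called lower, the plakin gene EVPL (-0.39 ± 0.07, limma adjusted p = 0.0045) and the plakophilin gene PKP2 (-0.26 ± 0.07, 0.0237). In that comparison 7.53% of all tested clusters were called lower. The EVPL call was lost without shEED replicate 2 (0.0581) or set b replicate 1 (0.0584), and the PKP2 call without any 1 array (0.0903 to 0.164). Against the other scrambled set PKP2 was 0.11 higher with shEED (0.219) and changed by -0.26 with shEZH2 (0.0139), which was called. The median change of the 6 ran from -0.22 with shEED to 0.14 with fip EZH2, beside 0.02 over all tested clusters in each.

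Of 18 other cadherin genes 16 were measured and only CDH24 reached the floor; it was called in 0 of the 4 treatments. CDH2, the N-cadherin gene, lay between 3.71 and 4.03 on all arrays. Among repressors of CDH1, 5 of 8 were tested, and ZEB1 (3.56 to 3.91) and ZEB2 (3.77 to 4.14) were below the floor on every array. SNAI1, which encodes Snail, was higher with shEZH2 in HCC70 (0.96 ± 0.13, limma adjusted p = 0.000553), at a mean of 7.15 against 6.19. SNAI2, which encodes Slug, was lower with shEZH2 (-0.72 ± 0.14, 0.00788) and with shEED (-1.53 ± 0.14, 3.18e-05). The SNAI2 call with shEZH2 was lost without set a replicate 1 (0.075). Against the other scrambled set SNAI2 was at -1.26 with shEZH2 and -0.99 with shEED, both called and in the opposite order of size. SNAI1 was then at 0.63 with shEZH2 and 0.50 with shEED, both called (0.00349 and 0.00933). SNAI1 and SNAI2 were below the floor in MDA-MB-468. CDH1 itself overlapped its control with shEZH2, as given above.

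Partners of the adherens junction had 0 of 13 tested genes called with shEZH2 in HCC70 against set a, 5 lower with shEED, 1 higher with fip EZH2, and 1 higher and 3 lower with shEZH2 in MDA-MB-468. Over all tested clusters 7.53% were lower with shEED, 0.909% higher with fip EZH2, and 2.73% higher and 5.57% lower in MDA-MB-468. The actin-binding genes VCL (vinculin) and LIMA1 were called in 3 and in 2 of the treatments. VCL changed by -0.56 ± 0.07 with shEED (limma adjusted p = 0.000402), 0.45 ± 0.07 with fip EZH2 (0.0152) and -0.48 ± 0.07 with shEZH2 in MDA-MB-468 (0.00365). LIMA1 changed by -0.65 ± 0.08 with shEED (0.000323) and -0.82 ± 0.08 with shEZH2 in MDA-MB-468 (0.000334). In HCC70 the control sets differed more than that: set b exceeded set a by 0.82 for VCL and 0.83 for LIMA1. Of the 13 genes 5 were called higher in set b than in set a, beside 15.3% of all clusters. Against set a the shEED changes were 0.26 for VCL (0.0158) and 0.18 for LIMA1 (0.115), so their direction with shEED turned with the control. Against set b, shEZH2 in HCC70 gave -0.83 for VCL (1.3e-05) and -0.86 for LIMA1 (2.15e-05), both called; neither was called against set a. The VCL call with fip EZH2 was lost without any 1 array (0.0550 to 0.184).

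Keratins that desmosomes anchor had 7 of 10 genes tested. Over all tested clusters 4.06% were lower with shEZH2 in HCC70, 7.53% lower with shEED and 0.909% higher with fip EZH2. With shEZH2 in HCC70 2 were lower, KRT14 (-0.82 ± 0.09, limma adjusted p = 0.000122) and KRT16 (-0.69 ± 0.08, 0.000294), keratins of basal and of activated epithelium. With shEED 5 were lower, KRT14 (-0.56) and KRT16 (-0.56) among them, at -1.30 and -1.43 against set a. With fip EZH2 the same 2 genes were higher, KRT16 by 0.55 ± 0.08 (0.00967) and KRT14 by 0.50 ± 0.09 (0.0212), and in MDA-MB-468 0 were called. Set b lay 0.74 below set a for KRT14 and 0.86 below it for KRT16, so that against set b shEZH2 gave -0.08 for KRT14 (0.535) and 0.17 for KRT16 (0.141). The KRT14 call with fip EZH2 was lost without any 1 array (0.0770 to 0.192), and the KRT16 call without either fip EZH2 array or plKO Puro replicate 1 (0.0700 to 0.128).

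Tight junction genes had 13 of 16 tested, with 1 lower with shEZH2 in HCC70, 3 lower with shEED, 0 called with fip EZH2 and 3 lower in MDA-MB-468. Over all tested clusters 4.06% were lower with shEZH2 in HCC70, 7.53% with shEED and 5.57% in MDA-MB-468. Between the control sets 7 of the 13 genes were called higher in set b than in set a, beside 15.3% of all clusters. The HCC70 counts of this list therefore rest on the set used. CLDN1, a claudin gene, was lower with shEZH2 (-0.73 ± 0.13, limma adjusted p = 0.00469) and with shEED (-0.92 ± 0.13, 0.000785), but set b exceeded set a by 1.01. Against the other set, shEZH2 gave -1.74 (3.61e-06) and shEED 0.09 (0.640). CGN, which encodes the junction plaque protein cingulin, was lower with shEED (-1.01 ± 0.10, 6.95e-05) and not called with shEZH2 (-0.27, 0.128). Against the other set it was called in both, at -0.69 with shEED and -0.59 with shEZH2 (0.000408 and 0.00161). Epithelial transcription factors and splicing regulators had 9 of 12 tested, with 0, 2, 0 and 3 called in the same order of treatments, all lower.

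**Figure D4:**
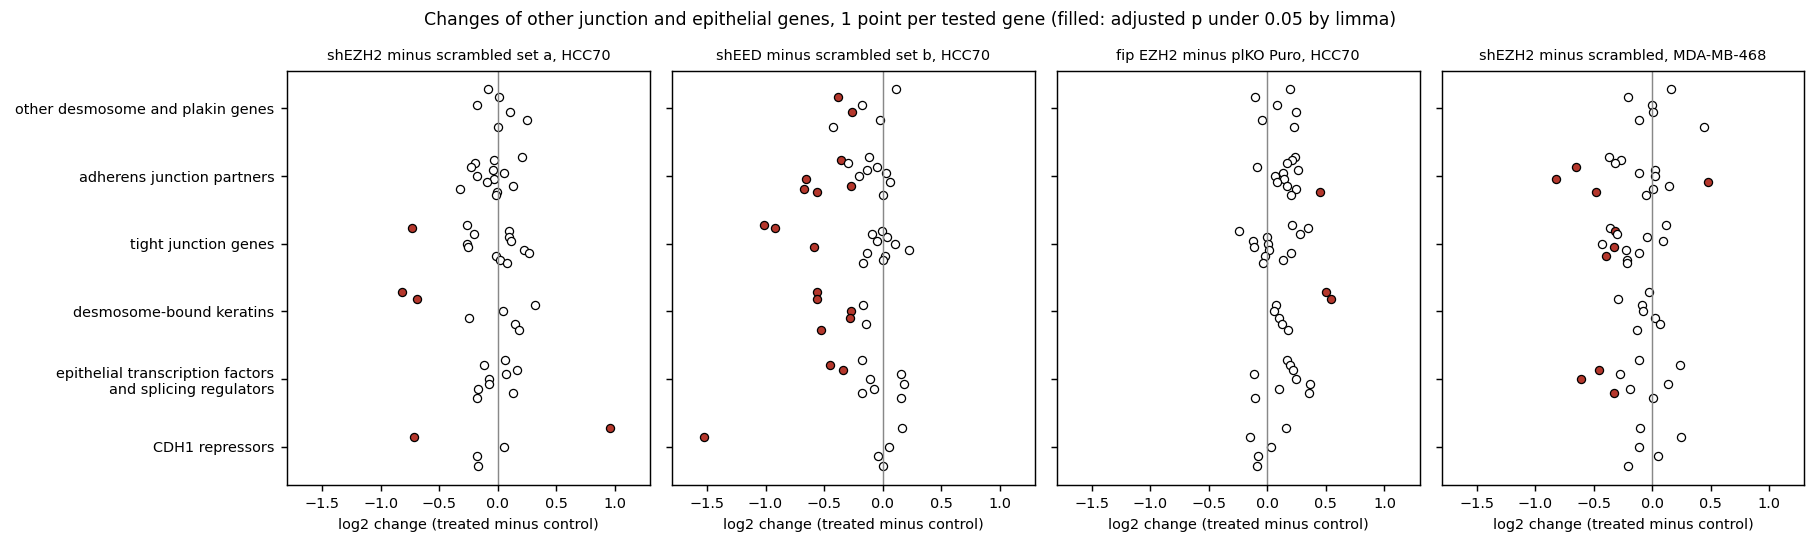
Log2 change (x axis), treated minus control, of the tested genes in 6 related lists, 1 point a gene; filled points have a limma adjusted p under 0.05. With shEED the filled points are all below 0, and the desmosome and plakin list has 2 filled points, both with shEED.

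Genes whose pattern over the 8 group means was most like each of the 10 were taken from 11635 tested genes, by Pearson's r as a description. The closest were SLC66A2 for DSG2 (r = 0.999), PITPNC1 for DSG3 (0.998), STYX for DSC2 (0.991), ADIPOR2 for DSC3 (0.983), NCAPH2 for DSP (0.969), AP5Z1 for PKP1 (0.999), FAM234A for JUP (0.997), ATP11B for CDH1 (0.998), MXRA7 for CDH3 (0.998) and POU2F3 for PKP3 (0.992). For the 8 genes called lower in MDA-MB-468, the line difference enters these values, since 2 of the 8 points are from that line. Over the 6 HCC70 group means alone, the desmocollins DSC2 and DSC3 followed each other most closely (r = 0.942), then DSG3 and DSP (0.915). The r of DSC2 and CDH3 was -0.706. The shEZH2 group enters these values strongly: of the 6 means, its DSC2 (9.79) and DSC3 (9.61) were the lowest and its CDH3 (11.82) the highest. The other HCC70 means of DSC2 ran from 10.39 to 10.60, so these r largely restate the shEZH2 changes. The group means share arrays and normalization, and no p is given for the r values.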

How the data were processed

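Total RNA was hybridised to 16 arrays. The authors deposited log2 signals, 1 per transcript cluster and array, made with RMA in Affymetrix Expression Console per the submitters' processing notes; no source used here gives versions or the genome build of the clusters. RMA summarises on the log2 scale, and changes of dim clusters tend to be understated. Arrays have no read depth, and precision is limited by 2 arrays a group. Sample titles gave the groups. limma 3.58.1 fitted 1 mean per group, 8 in all, to the 16 arrays together, run in R 4.3.3 (8 residual and 3.69 prior degrees of freedom), on 16175 clusters with log2 6 or more on at least 2 arrays, with two-sided contrasts and Benjamini-Hochberg adjustment within each of 8 comparisons. The script was tested on simulated data. Genes were named only from clusters with exactly 1 symbol: all 10 genes, EZH2, EED and up to 4 called genes per list and comparison. The members and gene lists were chosen with earlier results of these data known. The correlation of the deviations of same-numbered arrays ran from -0.04 to 0.08, so the replicate numbers were not taken as pairs. No pair of arrays held identical values. Promoter windows came from RefSeq (GRCh38.p14). Alternatives covered the floor, scaling, the naming rule, a replicate block, the eBayes trend, the arrays fitted, each array left out and the control set. No scan dates were used, so batches were not tested.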

Additional observations from a re-analysis of the deposited data

Results flagged for a closer look

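The values below are differences between 2 changes that passed limma's test of the difference at an adjusted p under 0.05. Between the EZH2 knockdowns of HCC70 and MDA-MB-468, HCC70 minus MDA-MB-468, CDH3 differed by 0.58 ± 0.14 (adjusted p = 0.0188), DSC2 by 0.35 ± 0.10 (0.037) and DSG3 by -1.04 ± 0.19 (0.00628). DSG3 is below the floor in MDA-MB-468. Among the related genes named, LIMA1 differed by 0.78, VCL by 0.47, SNAI1 by 1.06, SNAI2 by -0.96, KRT14 by -0.79 and KRT16 by -0.40. SNAI1 and SNAI2 are below the floor in MDA-MB-468. Against set b in place of set a, LIMA1 gave -0.04, VCL -0.35, KRT14 -0.05 and KRT16 0.47, so their differences between the lines are not independent of the control.

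Between the HCC70 knockdowns, EZH2 minus EED, DSC2 differed by -0.55 ± 0.10 (adjusted p = 0.0065). The related genes differed by 0.62 for LIMA1, 0.56 for VCL, 0.79 for SNAI1, 0.81 for SNAI2, 0.75 for CGN, 0.39 for EVPL and 0.37 for PKP2. With the control sets exchanged, DSC2 gave -0.92, EVPL 0.27, SNAI1 0.13 and CGN 0.09, and LIMA1, VCL, SNAI2 and PKP2 turned below 0. The cause of this dependence on the control set was not tested.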

How the results depend on the processing

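Counts of the 10 genes called, main against alternatives, moved as follows. With only the arrays compared in the fit, the counts were 1 for shEZH2 and 7 for shEED in HCC70, 0 for MDA-MB-468, 1 for the difference between lines and 2 for that between knockdowns. With the other scrambled set, shEED gave 4 and the difference between knockdowns 5. Counts over all clusters moved widely too, so these counts are not particular to the 10 genes. Over the alternatives other than leaving out 1 array, clusters called ran from 276 to 4325 for shEZH2 and 1747 to 5940 for shEED. For the difference between knockdowns they ran from 677 to 6843. With no floor, and with arrays centred on their medians, shEED gave 1. In MDA-MB-468 a floor of log2 7, 1-symbol clusters alone and an eBayes trend each gave 5; the trend gave 2 for the difference between knockdowns. Leaving out 1 array gave 3 to 4 for shEZH2, 1 for shEED, 0 for fip EZH2, 1 to 3 for MDA-MB-468, 0 to 1 for set b against set a, 8 between lines, 1 to 4 for the difference between lines and 1 to 2 for that between knockdowns. A left-out array leaves a lone array, assumed to vary like the other groups. The replicate block moved no count by over 1.5 times; it gave 4 in MDA-MB-468, with CDH3 called (adjusted p = 0.0494).

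Over the alternatives, 1130 values for the 10 genes were recomputed: 1042 stayed on the same side of the threshold, 41 lost a call, 47 gained one and 0 called values changed sign. Each gene had 1 cluster, so other clusters of a gene could not be tried.

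Other named genes reversed when the other scrambled set was used. With shEZH2 these were KRT16 (0.17) and PKP2 (-0.26); with shEED, LIMA1 (0.18), VCL (0.26), CLDN1 (0.087) and PKP2 (0.11). Between lines under scrambled shRNA, LIMA1 gave -0.19 and PKP2 -0.013. For the difference of the EZH2 effect between lines, KRT16 gave 0.47 (0.035 with both sets), LIMA1 -0.045 and VCL -0.35. For the difference between knockdowns, SNAI2 gave -0.27, KRT14 1.23, KRT16 1.60, LIMA1 -1.04, VCL -1.09, CLDN1 -1.83 and PKP2 -0.37.

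Counts over all clusters, main and range over all alternatives run, were 1837 (276 to 4325) for shEZH2, 2290 (1013 to 5940) for shEED, 158 (0 to 218) for fip EZH2, 1343 (21 to 1552) for MDA-MB-468 and 3677 (1604 to 6269) for set b against set a, 2141 (500 to 2633) for the difference between lines and 1021 (461 to 6843) for that between knockdowns. Centring arrays on their medians moved the split of higher and lower calls to 226 and 974, from 442 and 901, in MDA-MB-468, and to 2663 and 685, from 2479 and 1198, for set b against set a, where a further quantile normalization gave 2156 and 1600.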
